A study of Mus musculus with 17 samples.

Results

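The mitochondrially encoded transcripts were taken as every row of the gene count table whose symbol starts with mt-, which gave 37 of 55421 genes: 13 mRNAs, 2 rRNAs and 22 tRNAs. Total RNA-Seq had been performed on primary lung fibroblasts from 17 mice, 1 library per mouse. All mice were Ephb4 f/f and carried Col1a2-CreERT2, a Cre recombinase driven by a collagen promoter and switched on by tamoxifen, on a C57BL/6J background. Ephb4 CKO (conditional knockout) mice had been given 4-hydroxytamoxifen at 1 mg per day for 5 days from 4 weeks of age, and Ephb4 control mice corn oil. At 6 weeks of age, mice of both genotypes received either bleomycin at 1.2 U/kg, which induces lung fibrosis, or PBS, and 14 days later fibroblasts were harvested, cultured and passaged 1 time. The 4 groups were Ephb4 control PBS (n = 4), Ephb4 control bleomycin (n = 4), Ephb4 CKO PBS (n = 5) and Ephb4 CKO bleomycin (n = 4). Libraries are named here by group and a number that only identifies them.

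Mammalian mitochondrial DNA is a compact circle that is transcribed from both strands into long precursors, from which tRNAs are cut out so that the mRNAs and rRNAs between them are released. The mRNAs encode core subunits of respiratory complexes I, III and IV and of the ATP synthase, the rRNAs form the small (12S) and large (16S) subunits of the mitochondrial ribosome, and the tRNAs serve mitochondrial translation alone. Every protein needed to copy, transcribe, process and translate this genome is encoded in the nucleus. Stretches of mitochondrial DNA have also been copied into nuclear chromosomes during evolution, and such copies can share reads with the genes they came from.

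Ephb4, the gene targeted in the CKO mice, was measured first. In Ephb4 control PBS libraries its level was 24.2, 4.01, 33.2 and 2.33 CPM (the count per 1000000 counts of the TMM-scaled library total), and in Ephb4 control bleomycin libraries 64.7, 13.1, 35.3 and 40.5 CPM. In Ephb4 CKO PBS libraries it was 7.72, 23.6, 8.95, 4.01 and 4.05 CPM, and in Ephb4 CKO bleomycin libraries 14.0, 9.53, 10.1 and 4.94 CPM. The genotypes overlapped after both treatments, and Ephb4 control PBS 2 and 4 were no higher than the CKO libraries. The difference between CKO and control was -0.73 ± 0.72 on the log2 scale (SE) after PBS (adjusted p = 1.00) and -1.998 ± 0.79 after bleomycin (adjusted p = 0.22, edgeR quasi-likelihood test). Total counts ranged from 66540022 to 120554468 per library, with a median of 93075927. The summed level of 19 macrophage markers exceeded that of 14 fibroblast markers in 16 of 17 libraries. Fibroblast markers summed to between 46.6 and 7915 CPM in Ephb4 control PBS, 6083 and 13273 CPM in Ephb4 control bleomycin, 90.8 and 2353 CPM in Ephb4 CKO PBS, and 77.8 and 1981 CPM in Ephb4 CKO bleomycin. The macrophage markers summed to between 10599 and 46391, 1334 and 21674, 24723 and 46104, and 24521 and 44477 CPM in the same order of groups, and no marker of either list was at 0 throughout a group. Fibroblast markers summed to 129 and 46.6 CPM in Ephb4 control PBS 2 and 4, and to 1145 and 7915 CPM in Ephb4 control PBS 1 and 3. Ephb4 control bleomycin 2 had the highest sum, 13273 CPM, at an Ephb4 level of 13.1 CPM. Whether the Ephb4 level followed the fibroblast content of a library was not tested. The 8 endothelial markers summed to between 52.8 and 322 CPM and the 8 epithelial markers to between 30.9 and 2622 CPM over all libraries. In 3 libraries (Ephb4 control bleomycin 2, Ephb4 CKO bleomycin 1 and Ephb4 CKO bleomycin 2), Xist and Y-linked genes went against the labelled sex.

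Sequences of 6 tRNAs are shown first because their counts set them apart: mt-Tl1 and mt-Ts1 had the highest counts among the tRNAs, and mt-Td, mt-Tk, mt-Tg and mt-Tr were at or near 0. They are the GENCODE M21 transcripts (GRCm38), 5′ to 3′, with the anticodon in capitals.
mt-Tl1: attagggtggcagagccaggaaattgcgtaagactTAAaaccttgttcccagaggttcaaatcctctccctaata
mt-Ts1: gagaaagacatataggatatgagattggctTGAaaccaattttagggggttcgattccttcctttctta
mt-Td: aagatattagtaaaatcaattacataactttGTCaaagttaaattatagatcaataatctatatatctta
mt-Tk: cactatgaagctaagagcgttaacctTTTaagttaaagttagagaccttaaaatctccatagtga
mt-Tg: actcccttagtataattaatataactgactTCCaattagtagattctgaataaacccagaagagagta
mt-Tr: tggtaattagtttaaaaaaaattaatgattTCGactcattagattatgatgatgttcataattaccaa
The 22 tRNAs were 59 to 75 bases long, no longer than the reads, which were 75 bases. mt-Tl1 reads leucine codons, mt-Ts1 serine, mt-Td aspartate, mt-Tk lysine, mt-Tg glycine and mt-Tr arginine codons.

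Mitochondrially encoded transcripts made up 14.4% ± 4.4 (SD, n = 17) of all counts, and nearly all of that was rRNA. The rRNAs took 13.02% ± 4.2 of a library's counts, the mRNAs 1.36% ± 0.31 and the tRNAs 0.0078% ± 0.0017. By group, the rRNA share was 14.98% ± 5.8 in Ephb4 control PBS (n = 4), 11.7% ± 5.0 in Ephb4 control bleomycin (n = 4), 12.54% ± 3.4 in Ephb4 CKO PBS (n = 5) and 12.9% ± 3.6 in Ephb4 CKO bleomycin (n = 4). The mRNA share was 1.37% ± 0.34, 1.48% ± 0.41, 1.32% ± 0.34 and 1.29% ± 0.18 in the same order, and the tRNA share 0.0087% ± 0.0019, 0.0078% ± 0.0026, 0.0075% ± 0.0013 and 0.0073% ± 0.0015. For every class the 4 ranges overlapped. The library kit removes ribosomal RNA, so the amount of 12S and 16S rRNA left by that step and the amount in the cells cannot be told apart. In these bulk samples, fewer cells of a type and less RNA per cell cannot be told apart either.

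**Figure D1:**
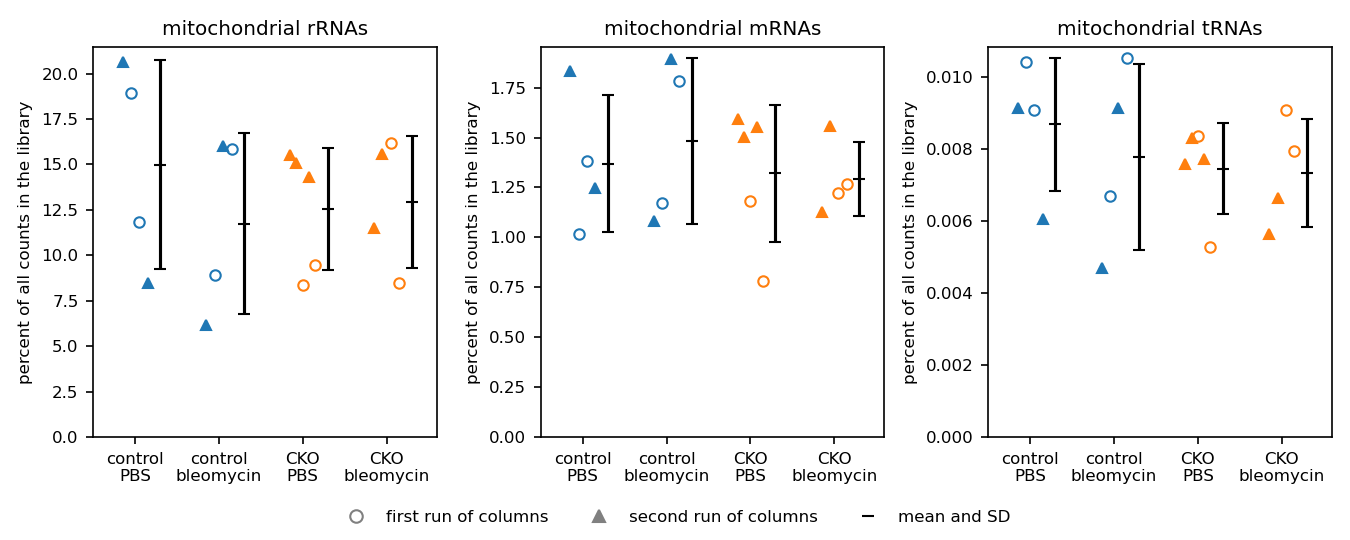
Percent of each library's counts on mitochondrial rRNAs, mRNAs and tRNAs (y axes, each starting at 0) in the 4 groups (x axis). Points are libraries, open circles and filled triangles mark the first and second sorted run of columns in the count table, and the bar beside each group is its mean ± SD. The groups overlap in all 3 panels, with rRNA shares between 6.16% and 20.6%.

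mt-Rnr2, the 16S rRNA (chrM:1094-2675, GRCm38), took more counts than any other mitochondrially encoded gene and was 1 of 5 genes with over 1% of the counts in the median library, at 13.3%. Its level was 191461, 215979, 87518 and 80770 CPM in Ephb4 control PBS libraries and 42605, 68729, 135961 and 134104 CPM in Ephb4 control bleomycin libraries. In Ephb4 CKO PBS libraries it was 188783, 155888, 71719, 141962 and 98341 CPM, and in Ephb4 CKO bleomycin libraries 101160, 134708, 162726 and 77902 CPM. The groups overlapped, with Ephb4 control PBS 2 highest and Ephb4 control bleomycin 1 lowest of the 17 libraries. mt-Rnr1, the 12S rRNA (chrM:70-1024), was 12908, 17998, 6491 and 10419 CPM in Ephb4 control PBS and 4576, 7890, 9330 and 10596 CPM in Ephb4 control bleomycin. It was 20099, 14552, 7780, 10315 and 8500 CPM in Ephb4 CKO PBS and 9604, 12836, 11734 and 9844 CPM in Ephb4 CKO bleomycin. Here too the groups overlapped, and Ephb4 control bleomycin 1 was again lowest. Per kilobase of transcript, the median levels were 84769 CPM for the 16S and 10801 CPM for the 12S rRNA, and the ratio of their counts ranged from 7.75 to 14.8 among libraries.

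Among the mRNAs, levels were compared per kilobase of transcript. mt-Co1, the catalytic subunit of complex IV, was highest at a median of 5318 CPM per kb, and mt-Nd6, a complex I subunit and the sole mRNA on the minus strand of the reference, was lowest at 24.9 CPM per kb. The other complex IV subunits followed mt-Co1, with medians of 1950 CPM per kb for mt-Co3 and 1182 CPM per kb for mt-Co2. mt-Nd1 of complex I was at 1144 CPM per kb, the ATP synthase subunits mt-Atp6 and mt-Atp8 at 586 and 452 CPM per kb, and mt-Cytb, the complex III subunit, at 585 CPM per kb. The remaining complex I mRNAs lay lower, with medians of 326 CPM per kb for mt-Nd3, 292 for mt-Nd2, 148 for mt-Nd5, 142 for mt-Nd4 and 76.5 for mt-Nd4l.

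These levels are uncertain for at least 7 of the 13 mRNAs. Each of the 7 has an annotated nuclear copy at least 99% identical to it over the aligned part. The 7 copies lie side by side on chromosome 1 (chr1:24611535-24616197, GRCm38, minus strand), are annotated as unprocessed pseudogenes and follow the order of a stretch of the mitochondrial genome (chrM:6390-11042, 4653 bases). The copies of mt-Co2 (Gm28661), mt-Atp6 (Gm10925), mt-Co3 (Gm28437), mt-Nd4l (Gm10222) and mt-Nd4 (Gm28439, its first 876 bases) matched with no mismatch. Gm29216, which covers bases 1063 to 1545 of mt-Co1, differed from it by A1066T, and Gm28438 differed from mt-Nd3 by T3C, counted from 1 at the 5′ end of the mitochondrial transcript. Both windows are shown to make plain how little separates a gene from its copy, with the differing base in capitals.
mt-Co1, from base 1063: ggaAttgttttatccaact
Gm29216: ggaTttgttttatccaact
mt-Nd3, from base 1: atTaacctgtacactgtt
Gm28438: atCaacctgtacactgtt
Beyond these, 10 annotated copies between 90.7% and 97.6% identical had fewer counts than the near-identical copies of the same genes, or few counts at all. The highest of these were Gm13340, a copy of the whole mt-Co1 transcript on chromosome 2, at a median of 110 CPM before TMM scaling, and Gm13341, a copy of mt-Co2 beside it, at 29.0.

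The counts on the near-identical copies followed those of the mitochondrial genes closely. Gm28437 had 47302 to 227065 counts and mt-Co3 47374 to 227237, a ratio of 0.992 to 1.00 in the 17 libraries. For mt-Co2, mt-Atp6 and mt-Nd4l the ratio of copy to gene also lay within 5% of 1 in all 17 libraries, and for mt-Nd3 in 16 of 17. For the genes covered in part the ratio was lower, at 0.167 to 0.217 for mt-Co1 and 0.298 to 0.394 for mt-Nd4. How reads that match a gene and its copy equally well were divided between them was not tested. Together the copies took 0.436% ± 0.108 (SD, n = 17) of all counts, beside 1.36% for the mRNAs themselves.

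**Figure D2:**
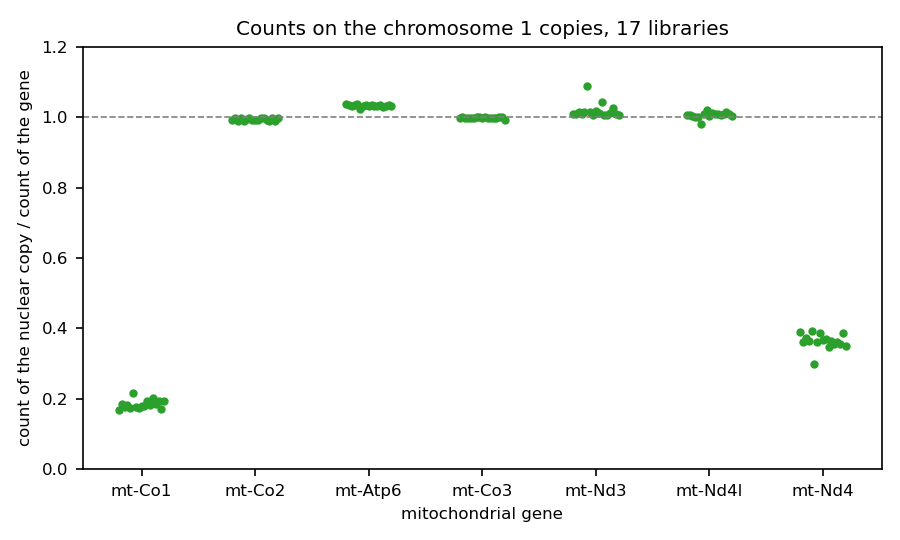
Count of each chromosome 1 copy divided by the count of the mitochondrial gene it matches (y axis, no unit) for 7 genes (x axis), with 1 point per library and a dashed line at 1. For 5 genes all points but 1 lie within 5% of the line, while mt-Co1 and mt-Nd4, which the copies cover in part, lie between 0.167 and 0.394.

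With the copies' counts added to the genes they match, the per-kilobase order of the complex IV mRNAs was kept, at medians of 6266 CPM per kb for mt-Co1, 3898 for mt-Co3 and 2359 for mt-Co2, each above the next in 17 of 17 libraries. mt-Atp6 moved above mt-Nd1 (1192 against 1144 CPM per kb, higher in 15 of 17 libraries) and mt-Nd3 above mt-Cytb in the medians (655 against 585 CPM per kb), although mt-Nd3 was the higher of that pair in 4 of 17 libraries. mt-Nd4l and mt-Nd5 lay close together (153 and 148 CPM per kb), with mt-Nd4l higher in 11 of 17 libraries. The ranges over libraries overlapped for all neighbours in this order except mt-Nd5 and mt-Nd6, where the lowest mt-Nd5 value was 83.7 and the highest mt-Nd6 value 39.5 CPM per kb.

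mt-Atp8 and mt-Atp6, and likewise mt-Nd4l and mt-Nd4, have overlapping reading frames, and each pair is known to be kept as 1 transcript. The annotated transcripts of the first pair share 43 bases (chrM:7927-7969) and those of the second 7 bases. The last 60 bases of mt-Atp8 are given with the part shared with mt-Atp6 in capitals, since counts there can be assigned to either gene.
mt-Atp8, bases 145 to 204: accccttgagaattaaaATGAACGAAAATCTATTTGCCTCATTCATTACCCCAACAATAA
The per-kilobase level of mt-Atp8 was 0.573 to 0.801 times that of mt-Atp6, and 0.283 to 0.394 times once the copy of mt-Atp6 was added. mt-Nd4l was 0.41 to 0.679 times mt-Nd4, and 0.625 to 0.98 times with both copies added. None of the annotated copies found matched mt-Atp8 over 100 bases or more, so none was added for it. Gm10925 does match the 43 bases that mt-Atp8 shares with mt-Atp6. mt-Atp8 (chrM:7766-7969) lies between mt-Co2 and mt-Atp6, inside the stretch matched by the chromosome 1 copies. Whether an unannotated copy of it lies there was not tested.

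The mRNAs differed in how far they spread among libraries. mt-Co1, the most abundant, was 10265, 10151, 6306 and 7230 CPM in Ephb4 control PBS and 4274, 5468, 9111 and 8733 CPM in Ephb4 control bleomycin. In Ephb4 CKO PBS it was 13068, 9555, 8073, 8353 and 5530 CPM, and in Ephb4 CKO bleomycin 6561, 8217, 9130 and 7455 CPM. Its highest and lowest libraries were 3.06 times apart and its SD within groups was 0.41 on the log2(CPM + 2) scale.

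mt-Cytb spread most, with an SD within groups of 1.01 on that scale and its highest and lowest libraries 12.2 times apart. It was 1104, 98.4, 642 and 728 CPM in Ephb4 control PBS and 612, 667, 1200 and 1120 CPM in Ephb4 control bleomycin. It was 1031, 1046, 240, 1180 and 377 CPM in Ephb4 CKO PBS, and 575, 849, 317 and 669 CPM in Ephb4 CKO bleomycin. The lowest values, in Ephb4 control PBS 2, Ephb4 CKO PBS 3, Ephb4 CKO bleomycin 3 and Ephb4 CKO PBS 5, came from 3 groups. All of these libraries were in the first sorted run of columns in the count table. mt-Nd3 had the next widest spread, with an SD of 0.89.

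Ephb4 control PBS 2 stood apart from the other libraries. It held the lowest value of 8 of the 13 mRNAs, with mt-Cytb at 14.7%, mt-Nd3 at 19.2%, mt-Co2 at 30.1% and mt-Co3 at 34.9% of the median of the 17 libraries. In the same library mt-Rnr1 stood at 174%, mt-Rnr2 at 161%, mt-Ts1 at 187% and mt-Co1 at 124% of their medians, so the rRNAs and mt-Co1 were high where most mRNAs were low. The ratio of mt-Co1 to mt-Cytb was 103 there, 33.6 in Ephb4 CKO PBS 3 and 28.8 in Ephb4 CKO bleomycin 3, against a median of 9.82. The rRNA share was 18.6 times the mRNA share in Ephb4 control PBS 2, against a median of 9.20. RNA integrity numbers were stated only as above a common threshold for all samples, and their part in these differences was not tested. The macrophage markers of this library summed to 46391 CPM, the highest of all, and its fibroblast markers to 129 CPM. The next highest macrophage sums were 46104 CPM in Ephb4 CKO PBS 5, 44477 in Ephb4 CKO bleomycin 3 and 44120 in Ephb4 control PBS 4. In the same order, mt-Cytb stood at 56.3%, 47.3% and 109% of its median there, and mt-Rnr2 at 73.3%, 121% and 60.2%. The part of cell content in this profile was not tested.

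**Figure D3:**
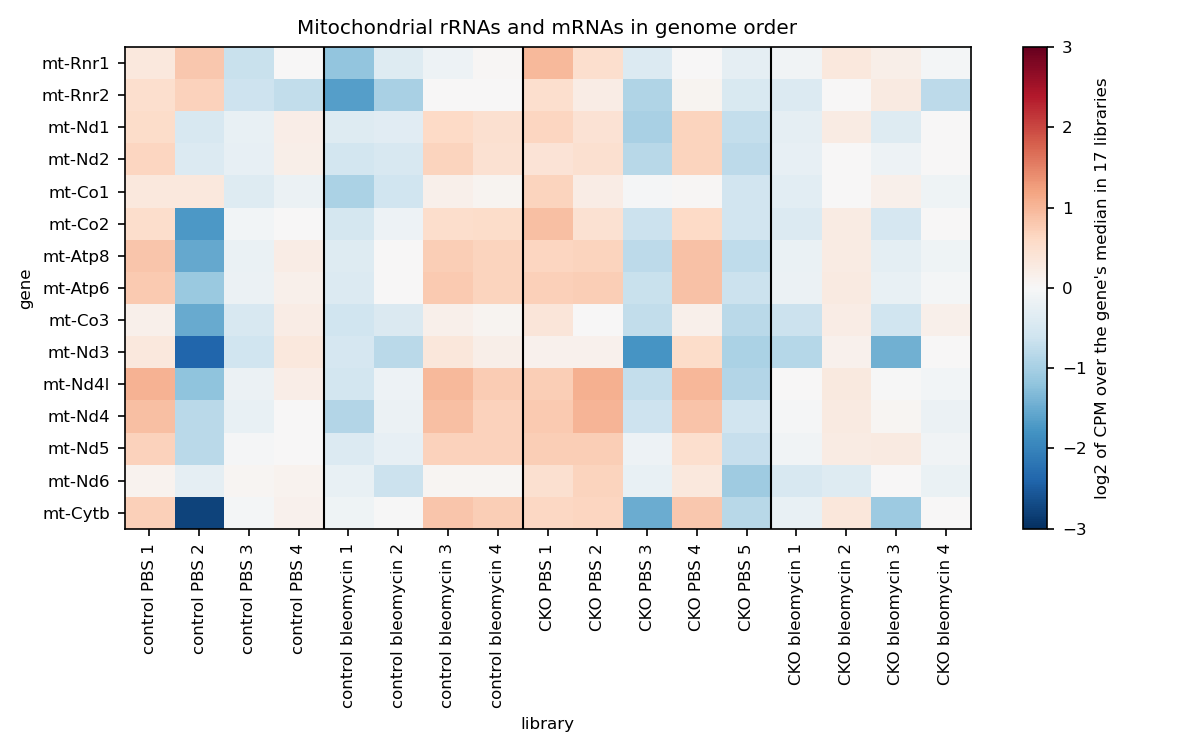
Level of each mitochondrial rRNA and mRNA (rows, in genome order) in each library (columns, grouped), as the log2 of its CPM over the gene's median in 17 libraries. Ephb4 control PBS 2 is low for most mRNAs after mt-Co1, lowest for mt-Cytb (14.7% of the median), and high for both rRNAs.

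mt-Nd6, transcribed from the opposite strand to the other mRNAs, overlaps mt-Nd5 by 14 bases in antisense. It was 13.9, 10.7, 13.5 and 13.9 CPM in Ephb4 control PBS and 11.1, 8.24, 13.6 and 13.4 CPM in Ephb4 control bleomycin. In Ephb4 CKO PBS it was 18.1, 20.5, 11.1, 16.1 and 6.13 CPM, and in Ephb4 CKO bleomycin 9.27, 9.91, 12.9 and 11.3 CPM. The groups overlapped, and its highest and lowest libraries were 3.35 times apart.

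mt-Co2 was 1158, 243, 762 and 810 CPM in Ephb4 control PBS and 562, 727, 1166.5 and 1180 CPM in Ephb4 control bleomycin. In Ephb4 CKO PBS it was 1507, 1109, 514, 1218 and 541 CPM, and in Ephb4 CKO bleomycin 606, 959, 568 and 808 CPM. These ranges overlapped, and the lowest value was again in Ephb4 control PBS 2. The other mRNAs spread between 2.82 times (mt-Nd2) and 7.61 times (mt-Nd3) from the lowest to the highest library, with median levels of 1095 CPM for mt-Nd1, 303 for mt-Nd2, 92.1 for mt-Atp8, 399 for mt-Atp6, 1529 for mt-Co3, 114 for mt-Nd3, 22.7 for mt-Nd4l, 195 for mt-Nd4 and 269 for mt-Nd5.

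Most of the tRNA counts fell on 1 gene. mt-Ts1 took 56.7% to 82.6% of all tRNA counts in a library, and mt-Ts1 and mt-Tl1 together 77.7% to 89.6%. mt-Ts1 was 54.1, 95.7, 50.1 and 42.0 CPM in Ephb4 control PBS, 22.1, 44.4, 51.1 and 69.0 CPM in Ephb4 control bleomycin, 83.3, 61.0, 65.7, 46.8 and 45.3 CPM in Ephb4 CKO PBS, and 36.9, 42.8, 77.1 and 58.6 CPM in Ephb4 CKO bleomycin. The highest value was in Ephb4 control PBS 2 and the lowest in Ephb4 control bleomycin 1, the libraries that were also at the ends for mt-Rnr2. mt-Ts1 lies on the strand opposite to mt-Co1 and overlaps its last 3 bases. Its count was 0.00517 to 0.00943 times that of mt-Co1 over the 17 libraries. Whether reads from the strand of mt-Co1 were counted on mt-Ts1 was not tested. mt-Tl1, which directly follows mt-Rnr2, was 20.9, 12.6, 12.1 and 9.02 CPM in Ephb4 control PBS, 5.97, 6.36, 17.1 and 15.01 CPM in Ephb4 control bleomycin, 8.28, 18.4, 4.98, 19.5 and 7.09 CPM in Ephb4 CKO PBS, and 8.76, 8.97, 8.90 and 9.36 CPM in Ephb4 CKO bleomycin. The groups overlapped for both tRNAs.

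The remaining tRNAs had few counts. Of the 22 tRNAs, 16 had a count in all 17 libraries, 5 had one in 2 libraries or fewer, and mt-Tc had one in 3. mt-Td, mt-Tg and mt-Tr were at 0 in every library, and mt-Tk had 28 counts in 1 library and 1 count in another. These 4 tRNAs are the plus-strand tRNAs of the mitochondrial stretch matched by the chromosome 1 copies (the sequences with anticodons GTC, TTT, TCC and TCG above). In contrast, all 10 plus-strand tRNAs outside that stretch had counts in 17 of 17 libraries, from a highest count of 8 for mt-Ts2 to 2277 for mt-Tl1. On the minus strand, mt-Tn and mt-Tc, which lie outside the stretch, reached at most 12 and 29 counts. Whether reads from these tRNAs were assigned elsewhere, and whether the tRNA counts came from longer unprocessed transcripts, was not tested.

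**Figure D4:**
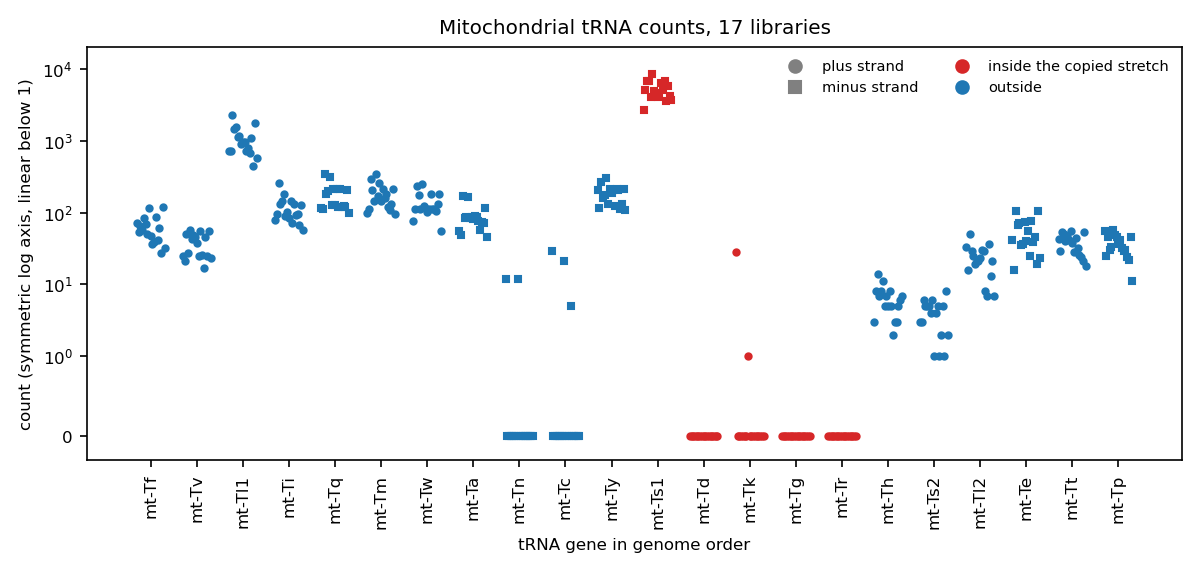
Counts of the 22 mitochondrial tRNAs (x axis, in genome order) in 17 libraries (y axis, symmetric log scale that is linear below 1), with circles for the plus and squares for the minus strand. Inside the stretch matched by the chromosome 1 copies (red), mt-Ts1 has 2685 to 8493 counts and the other 4 tRNAs are at or near 0.

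Bleomycin was then compared with PBS in Ephb4 control mice. The 12S and 16S rRNAs were lower after bleomycin by the fitted values, and most mRNAs were higher, but none of these differences passed the test. mt-Rnr1 differed by -0.56 ± 0.36 (log2 fold change ± SE, adjusted p = 0.46), mt-Rnr2 by -0.59 ± 0.44 (adjusted p = 0.52) and mt-Cytb by 0.49 ± 0.60 (adjusted p = 0.70). mt-Co1 had the smallest p of the mRNAs, with a difference of -0.30 ± 0.29, and mt-Ts1 that of the tRNAs, with -0.37 ± 0.35. Of the 17 members that passed the filter (13 mRNAs, 2 rRNAs, mt-Tl1 and mt-Ts1), 0 were called at an adjusted p under 0.05, as were 0% of all 10481 genes tested, and 0 had an unadjusted p under 0.05, beside 14.3% of all genes. The median log2 fold change was 0.19 over the 13 mRNAs and -0.06 over all genes, with 11 mRNAs above 0 and 2 below. The median of the mRNAs turned to -0.03 without Ephb4 control PBS 2, to -0.05 without Ephb4 control bleomycin 3 and to -0.21, with all 13 below 0, with the animal number series as a covariate. With the labelled sex as a covariate, a label that Xist and Y-linked genes went against in Ephb4 control bleomycin 2, it was 0.06. Animal numbers ran in a lower and a higher series. All Ephb4 control bleomycin libraries were of the higher series, but in Ephb4 control PBS only library 1 was. Series and bleomycin can therefore hardly be told apart in this comparison. Without Ephb4 control PBS 2, mt-Cytb differed by 0.15, mt-Rnr1 by -0.27 and mt-Rnr2 by -0.31. Between these groups the median summed level of the fibroblast markers was 637 CPM after PBS and 10604 CPM after bleomycin and that of the macrophage markers 35218 and 17966 CPM, and their part in the values was not tested.

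In PBS-treated mice, no difference between Ephb4 CKO and Ephb4 control passed the test in the mitochondrially encoded genes. The fitted values of all 13 mRNAs were above 0, from 0.02 for mt-Nd2 to 0.39 ± 0.42 (SE, adjusted p = 1.00) for mt-Co2, which had the smallest p. mt-Rnr1 differed by 0.03 ± 0.34, mt-Rnr2 by -0.13 ± 0.41 and mt-Tl1, the tRNA with the smaller p, by -0.23 ± 0.42. Among the 17 members, 0 were called (0% of all genes) and 0 had an unadjusted p under 0.05 (1.99% of all genes). The median was 0.24 over the mRNAs and -0.02 over all genes. For the mRNAs it was 0.12 when the order of the columns in the count table (2 runs of libraries) was a covariate and 0.10 when the labelled sex was. Without TMM scaling, which moved the median of all genes to -0.17, the median of the mRNAs was 0.01, with 7 above 0 and 6 below. It was 0.02 without Ephb4 control PBS 2, where mt-Rnr2 differed by 0.14 and mt-Cytb by -0.09, each with the opposite sign.

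Cultures from bleomycin-treated mice were then compared between Ephb4 CKO and Ephb4 control. The rRNAs were higher in CKO by 0.44 ± 0.36 for mt-Rnr1 (SE, adjusted p = 0.46) and 0.32 ± 0.43 for mt-Rnr2 (adjusted p = 0.67), while 12 of 13 mRNAs were below 0 (13 without TMM scaling, where mt-Co1 changed sign too), most for mt-Cytb with -0.58 ± 0.60 (adjusted p = 0.57). mt-Co1 was the exception at 0.18 ± 0.29, and mt-Tl1 differed by -0.31 ± 0.45. Neither direction passed the test: 0 of 17 members were called (0% of all genes), and 0 had an unadjusted p under 0.05, beside 20.2% of all genes. The median of the mRNAs was -0.26 and that of all genes 0.01. Without the 3 libraries that went against their labelled sex, all in these groups, the median of the mRNAs was -0.52 and mt-Cytb differed by -1.03 (adjusted p = 0.52). With the animal number series as a covariate that median was 0.02, with 9 mRNAs above 0 and 4 below. The series was uneven between these groups: all control libraries, but only CKO libraries 1 and 2, were of the higher series. The median summed level of the macrophage markers was 17966 CPM in Ephb4 control bleomycin and 35530 CPM in Ephb4 CKO bleomycin, that of the fibroblast markers 10604 and 543 CPM. With the macrophage marker level as a covariate, mt-Rnr1 differed by 0.24, mt-Rnr2 by 0.10 and mt-Cytb by -0.53, and no member was called.

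Bleomycin and PBS were last compared in Ephb4 CKO mice, where all 13 mRNAs, both rRNAs and both tRNAs were below 0. mt-Nd6 had the smallest p, at -0.41 ± 0.28 (SE, adjusted p = 1.00), and mt-Tl1 differed by -0.37 ± 0.43. mt-Nd4 had the most negative value of the mRNAs, at -0.42 ± 0.44, and mt-Co3 lay closest to 0 at -0.03. mt-Rnr1 and mt-Rnr2 differed by -0.15 ± 0.34 and -0.14 ± 0.41. Of the 17 members, 0 were called (0% of all genes) and 0 had an unadjusted p under 0.05 (0.964% of all genes), and the medians were -0.36 over the mRNAs and -0.03 over all genes. With the column runs as a covariate the median of the mRNAs was -0.13, with 11 below 0 and 2 above. Without TMM scaling it was -0.15, with both rRNAs above 0 and a median of all genes of 0.11. The genotype by bleomycin interaction, which asks whether the response to bleomycin differed between genotypes, was smallest in p for mt-Co2 (-0.70 ± 0.61, adjusted p = 0.92), and for mt-Ts1 among the tRNAs (0.21 ± 0.48). It called 0 members (0% of all genes), with 0 at an unadjusted p under 0.05 beside 3.46% of all genes. The comparisons share their control groups, so their values are not independent. In 68 pairs of member and comparison, 0 had groups that did not overlap. Over all genes tested the groups did not overlap for 8.84% with bleomycin in control, 0.239% with genotype after PBS, 23.2% with genotype after bleomycin and 0.0763% with bleomycin in CKO.

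**Figure D5:**
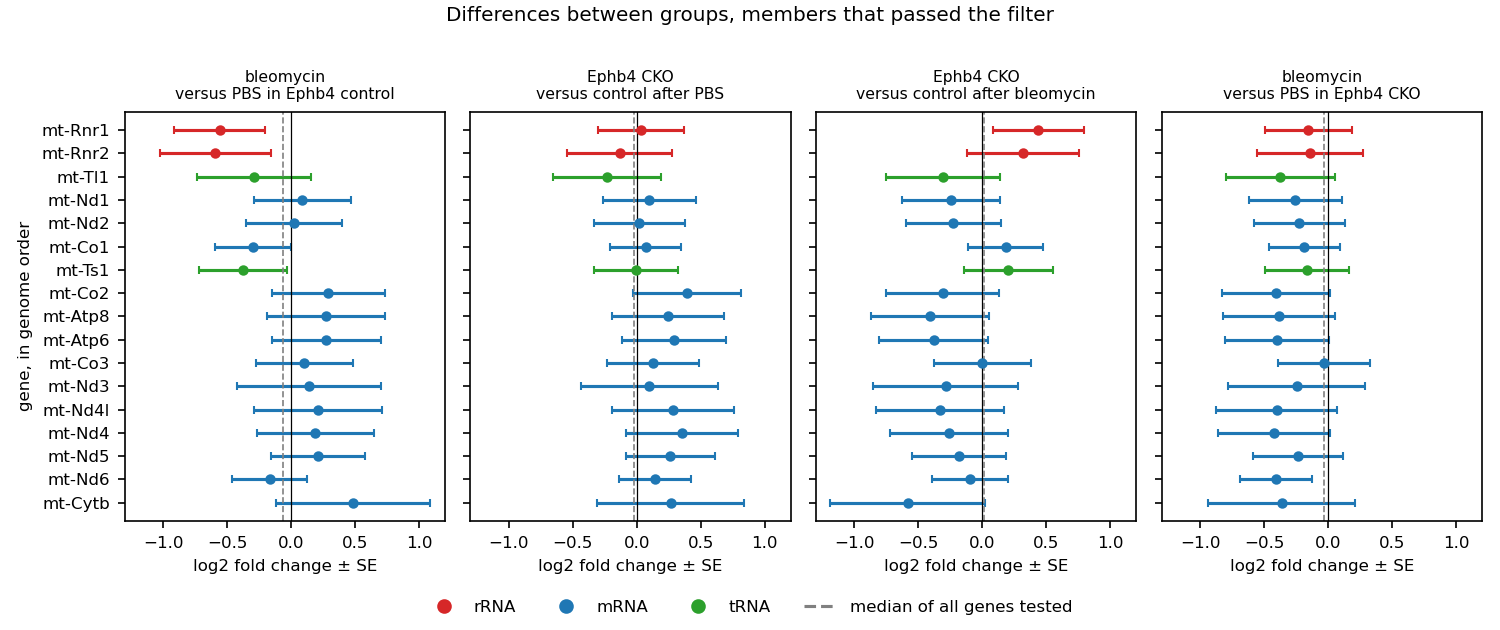
Log2 fold change ± SE (x axis) of the 17 members that passed the filter (y axis, in genome order) in 4 comparisons, from the edgeR fit, with the median of all genes tested as a dashed line. No member passed the test in any panel. The rRNAs and most mRNAs lie on opposite sides of 0 for bleomycin in Ephb4 control and for genotype after bleomycin.

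The columns of the count table came as 2 alphabetically sorted runs of 8 and 9 libraries, each holding 2 or 3 libraries of every group. The study sequenced its samples in sets of the same sizes, but which library was in which set is not given in the sources used here, so the runs are described only as an order of columns. This comparison was added after the values had been seen. All 13 mRNAs had a higher median in the second run, and 9 of them had an unadjusted p under 0.05 in a fit with the group means, all higher in the second run, beside 3.2% of all genes that were higher there at that threshold. The 9 were mt-Nd1, mt-Nd2, mt-Atp8, mt-Atp6, mt-Co3, mt-Nd3, mt-Nd4l, mt-Nd4 and mt-Cytb, with differences from 0.53 to 0.95 on the log2 scale. They are not 9 independent results, since mitochondrial mRNAs are cut from shared precursors. Ephb4 control PBS 2, a library of the first run, also held the lowest value of 8 of the 13 mRNAs. The share of all genes is therefore no measure of how unusual this count is. None passed the correction (0% of all genes were called), with the lowest adjusted p at 0.62 for mt-Nd4l. mt-Cytb was 98.4 to 1120 CPM with a median of 509 in the first run and 575 to 1200 CPM with a median of 1031 in the second. Its low end in the first run was Ephb4 control PBS 2, Ephb4 CKO PBS 3, Ephb4 CKO bleomycin 3 and Ephb4 CKO PBS 5 (98.4, 240, 317 and 377 CPM). These libraries all had animal numbers of the lower series, and the others of that run lay between 642 and 1120 CPM. mt-Co1 (0.13 ± 0.21), mt-Rnr1 (0.14 ± 0.26) and mt-Rnr2 (0.16 ± 0.32) had smaller differences, and mt-Ts1 differed in the other direction by -0.43 ± 0.22. The runs were not independent of the animals' numbering, since 6 of 8 libraries in the first run and 2 of 9 in the second had animal numbers of the lower series.

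Within the runs, the group differences were not steady. For mt-Cytb, bleomycin minus PBS in Ephb4 control was 1.77 in the first run and -0.06 in the second (difference of mean log2(CPM + 2), 2 libraries against 2), and for mt-Rnr2 -0.52 and -0.71. The PBS libraries of the first run were Ephb4 control PBS 2 and 3, with mt-Cytb at 98.4 and 642 CPM. The value of 1.77 thus rests largely on Ephb4 control PBS 2. CKO minus control after bleomycin was -0.91 and -0.29 for mt-Cytb and 0.23 and 0.62 for mt-Rnr2. In Ephb4 CKO, bleomycin minus PBS turned its sign between runs for mt-Rnr1 (0.40 and -0.38), mt-Rnr2 (0.42 and -0.46), mt-Co1 (0.30 and -0.47), mt-Nd6 (0.45 and -0.80) and mt-Cytb (0.61 and -0.63). CKO minus control after PBS turned its sign for both rRNAs, mt-Co1 and mt-Nd6, but not for mt-Cytb (0.25 and 0.27).

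Nuclear genes that maintain and express the mitochondrial genome were also examined. Of 16 genes for transcription and replication of mitochondrial DNA, 9 passed the filter, and after bleomycin 5 were higher and 4 lower in Ephb4 CKO than in control, with 0 at an unadjusted p under 0.05, beside 20.2% of all genes in this comparison. Tfam, which packages mitochondrial DNA and starts its transcription, differed by 0.01 ± 0.13 (SE) and Polrmt, the mitochondrial RNA polymerase, by -0.19 ± 0.15. In Ephb4 control mice, bleomycin against PBS gave 0.40 ± 0.15 for Polrmt (adjusted p = 0.32). In that list the smallest p in each direction after bleomycin belonged to Mgme1, a mitochondrial DNA exonuclease, with 0.56 ± 0.28, and Twnk, the mitochondrial helicase, with -0.45 ± 0.21.

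Of 33 genes for mitochondrial RNA processing, modification and stability, 27 were tested, of which 3 were higher and 2 lower in Ephb4 CKO after bleomycin at an unadjusted p under 0.05 (20.2% of all genes), and 0 were called. Lrpprc, which stabilises mitochondrial mRNAs, differed by 0.18 ± 0.35, Mto1, a tRNA-modifying enzyme, by 0.61 ± 0.25, and Nsun4, an rRNA methyltransferase, by -0.72 ± 0.26 (adjusted p = 0.22 for both of the last). Of the 14 translation factors, 9 were tested and 1, the recycling factor Gfm2, was higher at that threshold (20.2% of all genes) with 0.48 ± 0.20, while Mrrf differed by -0.24 ± 0.20.

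Of 22 genes for charging mitochondrial tRNAs, 14 were tested, with 3 higher and 2 lower at an unadjusted p under 0.05, beside 20.2% of all genes. Fars2, the phenylalanyl-tRNA synthetase of mitochondria, differed by 0.68 ± 0.24 (adjusted p = 0.21) and Gars, which charges glycine tRNAs in both cytosol and mitochondria, by -0.68 ± 0.19 (adjusted p = 0.20). Of 83 mitochondrial ribosomal protein genes, 78 were tested, with 3 higher and 1 lower at that threshold (20.2% of all genes) and a median of 0.09. Mrps34 differed by 0.64 ± 0.22 and Mrpl53 by -1.23 ± 0.41 (adjusted p = 0.21 for both). In none of the 4 comparisons was a gene of these lists called by edgeR, as was true of all genes, so edgeR calls cannot set these lists apart. DESeq2 called 399 of all genes for genotype after bleomycin, and its calls within these lists were not examined. The study, which used DESeq2 with batch as a covariate, reported Gars (as GARS1) among its downregulated genes. The 9 candidate nuclear copies that were tested had medians of 0.13, 0.29, -0.29 and -0.40 in the order bleomycin in control, genotype after PBS, genotype after bleomycin and bleomycin in CKO, beside 0.19, 0.24, -0.26 and -0.36 for the mRNAs. Most of these copies were the near-identical ones on chromosome 1, whose counts followed those of the genes. Their medians were thus bound to lie close to those of the mRNAs and are no separate result.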

How the data were processed

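Raw counts per gene were analysed as the authors deposited them. Libraries had been made with a stranded total RNA kit, trimmed with cutadapt, aligned to GRCm38 with HISAT2 2.1.0 and quantified with StringTie, whose counts are derived from coverage. The annotation release is not given in the sources used here. Gene positions and transcripts came from GENCODE M21 (55154 of 55421 identifiers matched), and copies were found with blastn 2.17.0 (90% identity or more over 100 bases). The main test was edgeR 4.0.16 (quasi-likelihood, TMM, 1 mean per group over 17 libraries, CPM above 10 in at least 2 libraries) with Benjamini-Hochberg adjustment over 10481 genes, at adjusted p under 0.05. A prior count of 2 was used for the macrophage marker level, and 2 was added to CPM on the log2(CPM + 2) scale. The SE of each log2 fold change was derived from that test, as the absolute log2 fold change divided by the square root of its F statistic. DESeq2 1.42.0, other normalizations, filters, covariates and leaving out each library were alternatives. Scripts were tested on simulated data, with planted changes larger than any fitted here for the members. Recovery was required only at a smaller spread (dispersion) than the data's common value of 0.311. That test therefore does not show that differences of the fitted sizes could be found. Each library is 1 mouse. Genes were named by a fixed rule: all mRNAs and rRNAs, the most abundant tRNAs, those with the smallest p per comparison, and chosen nuclear genes. Members, lists and this rule were chosen with earlier results of these data known. mt-tRNA and copied genes are uncertain where reads match several places.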

Additional observations from a re-analysis of the deposited data

Results flagged for a closer look

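In 68 sets of 1 member and 1 group, 1 library stood far from the others of its group, at the size of gap that chance gives in about 1 of 20 sets. mt-Nd6 was 10.7 CPM in Ephb4 control PBS 2, and the nearest of the other 3 libraries of that group was at 13.5 CPM, a gap of 0.881 of the group's range.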

How the results depend on the processing

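No mitochondrially encoded gene was called in any of 154 combinations of comparison and alternative, including DESeq2, which called 166, 1, 399, 1 and 0 of all genes in the 5 comparisons. The median log2 fold change of the mRNAs moved by less than the pooled SD within groups (0.59) in all alternatives. That SD was larger than each median of the main fit (0.19, 0.24, -0.26 and -0.36), so a change of sign also fell within it. The sign changed in 3 of 31 alternatives for bleomycin in control and in 1 of 31 for genotype after bleomycin. It changed in 0 of 31 for each of the other comparisons. Leaving out 1 library gave medians up to 0.51 for bleomycin in control (without Ephb4 control PBS 1) and 0.56 for genotype after PBS (same library), and down to -0.54 for bleomycin in CKO (without Ephb4 CKO PBS 5). With the animal number series as a covariate the medians turned to -0.21 for bleomycin in control and 0.02 for genotype after bleomycin. That series was unevenly spread between the groups of both comparisons. Without TMM scaling, which set the medians of all genes at 0.15, -0.17, -0.22 and 0.11, the medians of the mRNAs were 0.35, 0.01, -0.44 and -0.15 in the order bleomycin in control, genotype after PBS, genotype after bleomycin and bleomycin in CKO. They were 0.32, 0.12, -0.29 and -0.13 with the column runs as a covariate and 0.06, 0.10, -0.18 and -0.30 with the labelled sex. Since Xist and Y-linked genes went against that label in 3 libraries, all treated with bleomycin, the last medians are not adjusted for sex as expressed. With counts of the nuclear copies added, they were 0.19, 0.24, -0.27 and -0.36. Some of these settings were chosen after seeing the data: leaving out TMM scaling, the column runs as a covariate in edgeR and adding the nuclear copies. The fit without the 3 libraries that went against their labelled sex was also chosen then. The total share of counts on mitochondrially encoded genes had a median of 14.5% to 16.2% when each library was left out in turn. With mitochondrial rRNAs and the abundant noncoding RNA genes Rn7s1 and Rn7s2 out of the denominator, the mean mRNA share was 1.80% in Ephb4 control PBS, 1.86% in Ephb4 control bleomycin, 1.67% in Ephb4 CKO PBS and 1.65% in Ephb4 CKO bleomycin, and the tRNA share 0.0116%, 0.0098%, 0.00939% and 0.00939%. The fit to only the groups compared was not run for the interaction, which uses all groups. No paired analysis was possible because the labels give no replicate numbers.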
